A study of Mus musculus with 8 samples.

Results

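The genes described here encode the proteins of the cytosolic ribosome. They were taken from the rows of the count files by symbol, as Rpl or Rps followed by a number with an optional letter a, l or x and further digits, together with Rplp0, Rplp1, Rplp2, Rpsa and Fau, and with at least 10 reads summed over all libraries. Of 89 symbols of this form, 84 reached that number, 49 for the large (60S) subunit and 35 for the small (40S) subunit, among 48321 symbols in all. Rpl10l, Rpl39l, Rpl6l, Rps12l1 and Rps3a2 did not reach it. Symbols of annotated pseudogenes ending in -ps were left out, and GENCODE M21 also types 2 of the 84, Rps4l and Rps3a3, as processed pseudogenes. The values come from 8 RNA-seq libraries of natural killer (NK) cells, lymphocytes that kill infected or transformed cells, sorted by the authors as CD45+ TCRb- NK1.1+ cells from lung or spleen of C57/Bl6 mice. Each organ has 2 WT and 2 KO libraries, and KO stands for mice homozygous for Ccl5ΔPE, from which an enhancer of Ccl5 near the gene, Ccl5-PE, is deleted in every cell. No treatment is given for any of the 4 groups, the age and sex of the mice of each library are not given in the labels, and the study used mice of both sexes. The labels do not say whether libraries of a group come from separate mice, so p-values measure the spread between these libraries, which may be technical.

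Each ribosome holds a single copy of most of these proteins, and the subunits are assembled in the nucleolus from ribosomal RNA and proteins imported from the cytoplasm. The mRNAs begin with a run of pyrimidines, the terminal oligopyrimidine motif, through which mTORC1 and LARP1 adjust their translation as a group. In lymphocytes, ribosome production rises with growth and proliferation after activation.

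RefSeq start sites (GRCm38.p6) were given for 62 of the 84 genes. The letters CTTTCC on the transcribed strand, searched as a core of such a pyrimidine run, were present between 50 bases before and 50 bases after a start site in 18 of these genes (29.0%), and in 5.43% of all 27025 genes with a window. The letters CCGGAAG on either strand, a sequence bound by ETS-family factors, were present in 14 of the 62 (22.6%) and in 5.98% of all genes. Both motifs can share their C letters where one follows the other, and a match is a description of these letters only. The windows below, from 20 bases before to 25 bases after the start, belong to genes whose values are described in the text, and both motifs are in capitals. Rps4x is shown because its KO effect differed most between the organs.
Rps4x (chrX:102189367-102189411, - strand): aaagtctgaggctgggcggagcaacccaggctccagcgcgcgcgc
Rps3a1 (chr3:86142644-86142688, - strand): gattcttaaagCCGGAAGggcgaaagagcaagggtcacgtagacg
Rpl11 (chr4:136053369-136053413, - strand): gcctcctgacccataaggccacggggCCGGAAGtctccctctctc
Rpl35 (chr2:39005107-39005151, - strand): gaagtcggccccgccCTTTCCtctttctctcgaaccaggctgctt
Rps27 (chr3:90213624-90213668, - strand): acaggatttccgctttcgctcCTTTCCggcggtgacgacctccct
Rpl38 (chr11:114668560-114668604, + strand): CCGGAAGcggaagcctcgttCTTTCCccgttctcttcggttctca
In the spleen comparison described below, the median log2 fold change was 0.30 over the 18 genes with CTTTCC and 0.29 over the 42 tested genes with a window but without it. For CCGGAAG the medians were also 0.30 with the motif (14 genes) and 0.29 without it (46 genes). In lung KO, 2 of the 14 genes with CCGGAAG were higher and 5 lower, against 12 and 4 of the 46 without it, with medians of -0.035 and 0.022. Of all genes tested, 29.2% were higher and 26.4% lower in lung KO. Calls were not split by motif over all genes, so no link particular to these genes can be read from them. The median difference between the KO effects of lung and spleen was -0.44 with CCGGAAG and -0.18 without it, and -0.22 with CTTTCC and -0.20 without it. These medians were not tested against each other.

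Between 3132963 and 26482366 reads were counted on genes per library. Reads that aligned to more than 1 place made up 29.7 to 33.2% of the aligned reads of a library and were not counted. Of the uniquely aligned reads that passed the quality filter, 52.7 to 55.0% fell on no gene. Only part of each mRNA can be assigned uniquely, since ribosomal protein genes have many processed copies: between 13.31 and 100% of the 50-base words of a gene's longest coding transcript (median 58.3%) occur in no other annotated transcript, so the levels below are those of the uniquely counted reads. Exons of 3 of the 84 genes overlapped another gene on the same strand over more than 20% of their length and exons of 6 genes did so on the other strand, among them Rpl35 (with Arpc5l and Wdr38) and Rpl5 (with Fam69a), and the strand setting of the counting is not given in the sources used here. The targeted gene matched the labels, with Ccl5 at 19520 and 18350 CPM for lung WT, 2992 and 3195 for lung KO, 16680 and 15660 for spleen WT and 2676 and 2432 for spleen KO. CPM are counts per 1000000 reads after TMM scaling.

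NK cell markers were high in every library, with a summed level of 10 genes of 51200 and 49700 CPM for lung WT, 39700 and 40100 for lung KO, 36400 and 35700 for spleen WT and 48800 and 46500 for spleen KO. The sums of WT and KO did not overlap in either organ, and their order was opposite in the organs. Most of each sum came from Gzma and Nkg7. These 2 genes, Ncr1, Klrb1c, Klrd1 and Klre1 moved with the sum in both organs, and Eomes overlapped in lung. Prf1, Tbx21 and Il2rb went the other way in both organs. Prf1 was at 1460 and 1560 CPM for lung WT, 2480 and 2550 for lung KO, 1300 and 1320 for spleen WT and 939 and 938 for spleen KO. The summed CPM of 8 T cell markers was 434 and 415 for lung WT, 326 and 345 for lung KO, 561 and 549 for spleen WT and 634 and 600 for spleen KO. Trbc1 was the largest part, and Cd4 and Cd8a were at 2.25 CPM or less. In spleen, Cd3e went against the sum, at 32 and 32.5 CPM for WT and 7.51 and 11.1 for KO. Cd3g was also lower in spleen KO (61.4 and 60.9 CPM for WT, 57.5 and 55.3 for KO), whereas Cd3d, Trac and Trbc1 were higher. The summed level of 6 B cell markers, most of it from Ighm, was 248 to 308 CPM in lung, 517 and 531 for spleen WT and 632 and 617 for spleen KO, with Pax5 at 0.749 CPM or less. Lung epithelial transcripts (4 genes, led by Sftpc) summed to 253 and 251 CPM for lung WT, 356 and 395 for lung KO and at most 0.651 in spleen. Sftpc and Sftpa1 were higher in lung KO, whereas Scgb1a1 was lower (87.3 and 83.4 CPM for lung WT, 60.4 and 63.9 for lung KO). Erythroid transcripts (4 genes) summed to 24.7 and 27.7 CPM for lung WT, 48.9 and 52.5 for lung KO and at most 0.979 in spleen. Of 8 myeloid markers, Adgre1, S100a8 and S100a9 were at 0 in all libraries and the sum was 306 to 362 CPM. Lyz2 was at 12.2 to 25.2 CPM in lung and 1.63 to 4.1 in spleen. Sums over 3 endothelial markers, most from Pecam1, were 72.7 and 67.9 CPM for lung WT and 88 and 88.6 for lung KO. They were 64.9 and 74.9 for spleen WT and 67.2 and 68 for spleen KO. Cdh5 and Kdr were at 0 in all spleen libraries and at 1.81 CPM or more in lung. Those over 3 stromal markers were 1.84 to 3.67 CPM in lung and 0.5 or less in spleen. Markers of group 2 innate lymphoid cells (3 genes) summed to 398 to 497 CPM, with Il1rl1 at 1.9 or less. The part of these markers in the results below was not tested.

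Ribosomal protein mRNA took a small share of the counted reads that differed between the groups. The share on the 84 genes was 1.18% and 1.12% in lung NK cells of WT mice and stood at 1.24% and 1.28% with KO. Spleen NK cells of WT mice gave 1.48% and 1.41%, and those of KO mice 1.78% and 1.68%. The 4 groups did not overlap, and the order was lung WT, lung KO, spleen WT, spleen KO. Means were 1.15 ± 0.0396%, 1.26 ± 0.0325%, 1.45 ± 0.0516% and 1.73 ± 0.0686% (SD, n = 2 each). With 2 libraries against 2, an exact permutation test cannot give a two-sided p below 0.333, so these shares were not tested. Counting error is small at this depth: in the shallowest library, 1.78% had an exact 95% binomial interval of 1.76 to 1.79%, which covers counting error only. Rpl and Rps genes moved together, with mean shares of 0.611 and 0.539% for lung WT and 0.93 and 0.8% for spleen KO. In bulk samples, fewer cells of a type and less RNA per cell cannot be told apart. Other values of the libraries moved as well. The percentage of reads aligned to several places was highest in spleen KO (33.2 and 33.1%, against 29.7 to 31.2% in the other groups), and reads of the mitochondrial genome made up 1.45 and 1.36% of counts in lung WT, 0.945 and 0.932% for lung KO, 0.792 and 0.797% for spleen WT and 1 and 0.982% for spleen KO. Their part in the result was not tested. Summed over the genes after TMM scaling, lung WT (12370 and 11600 CPM) and lung KO (12090 and 12550 CPM) overlapped, and the spleen groups stayed apart (14370 and 13660 in WT, 18180 and 17050 in KO).

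**Figure D1:**
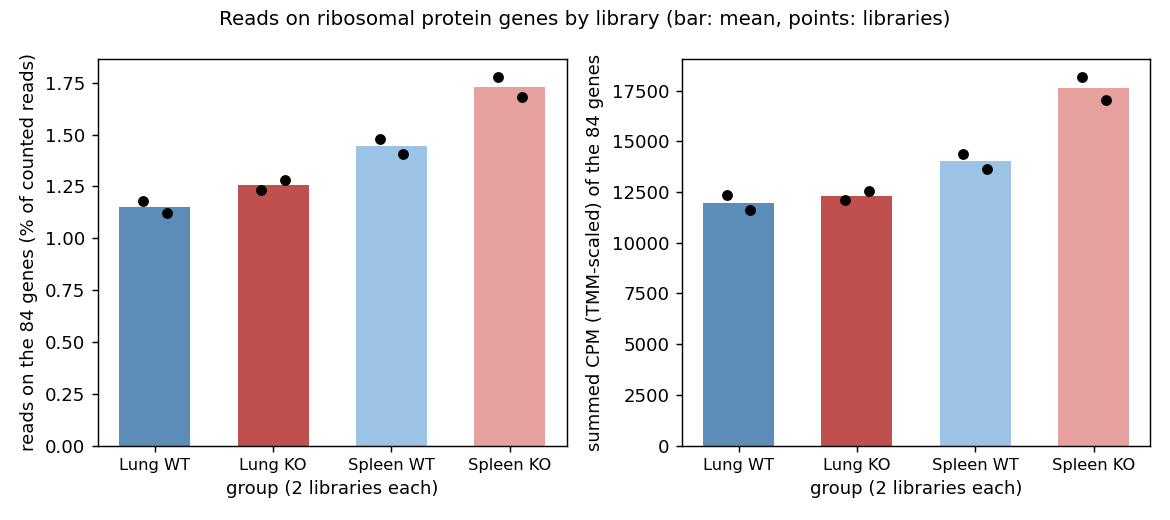
Share of counted reads on the 84 ribosomal protein genes (left, percent) and their summed CPM after TMM scaling (right) in the 4 groups of NK cell libraries. Bars are means of 2 libraries and points are libraries. The spleen KO libraries are highest on both scales (1.78 and 1.68%), and the lung WT and KO libraries overlap only on the right.

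The levels of the genes spread over more than 2 orders of magnitude, and the same genes led in every group. On the scale of CPM per kilobase of the longest coding transcript (RPKM), the highest genes over all libraries were Rps14 (967) and Rpl4 (966), and Rps27 (749) was also among the 5 highest. Rps14 is a protein of the 40S platform, Rpl4 is a core protein of the 60S exit tunnel, and Rps27 belongs to the 40S subunit. Rps14 was at 873 ± 13 RPKM (SD, n = 2) in lung WT and 1270 ± 120.0 for spleen KO, and Rpl4 was at 770.0 ± 4.1 and 1240 ± 11. These neighbours in the order, Rps14 and Rpl4, did not differ beyond their spread in spleen KO. This order depends on the gene length used: over the union of all exons Rpl4 was highest at 740.2 RPKM and Rps14 was at 317. Over the tested genes, the median level was 88.3 RPKM for lung WT, 88.9 for lung KO, 109 for spleen WT and 118 for spleen KO. The order of CPM among the 84 genes was close to the same in all groups, with Spearman correlations of 0.99 to 0.996 between group means, given as a description because the genes share length and uniqueness. The 10 genes with most reads, led by Rpl4 (10.8% of reads on the 84 genes) and Rps3 (6.86%), held 46.4 to 49.1% of the reads in each library. The level was nearly unrelated to how much of the transcript is unique (Spearman correlation -0.0823 over 84 genes).

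The fewest reads over all 8 libraries were on Rps3a3 (16), Rpl3l (18), Rpl24 (48), Rpl21 (392) and Rps12 (631). Rps3a3, Rpl3l and Rpl24 did not pass the filter on low counts and were not tested, so 81 of the 84 genes were tested, among 12595 genes in all. Rpl24, an essential 60S protein, shares 46.99% of its exon length with the read-through gene Gm28037 on the same strand, and its level was 2.07 CPM or less in every library. Rpl3l, a paralog of Rpl3 known from heart and skeletal muscle, was at 0 reads in 6 libraries and at 0.653 and 0.613 CPM for spleen KO. Its 50-base words are 100% unique. At these depths, 3 reads correspond to 0.115 to 0.979 CPM, and 0 reads of Rpl3l allow a level of up to 0.777 CPM in the 6 libraries. The spleen KO levels rest on 2 and 16 reads.

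Loss of Ccl5-PE was first compared in spleen. Most ribosomal protein genes were higher in the KO libraries by a modest amount. Of the 81 tested, 59 rose (72.8%) and 4 fell (4.94%) at an FDR of 0.05 by edgeR's quasi-likelihood test, where 28.2% and 28.9% of all 12595 genes were called higher and lower. The median log2 fold change was 0.29 over the 81 genes and 0 over all genes, with 68 genes above 0 and 13 below. Of the 63 called, 61 had KO and WT libraries that did not overlap. Overlap was not counted over all genes, so this count adds no support beyond the calls. The fold changes of those called ran from 0.704 to 1.83, with a median standard error of 0.0674 (log2) over all 81. Large and small subunit genes were alike, with 34 of 47 and 25 of 34 higher and medians of 0.30 and 0.29.

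The genes with the largest rise in spleen were Rpl17, Rps4x, Rps12, Rpl22 and Rps3a1. Rps4x, a 40S protein encoded on the X chromosome (chrX:102184941-102189394, - strand, GENCODE M21), was at 150.1 and 140.2 CPM for spleen WT, 239.9 and 227 for spleen KO, 178 and 168 for lung WT and 132 and 134 for lung KO. The spleen KO libraries were the highest and the lung KO libraries the lowest, and no groups overlapped. Its log2 fold change in spleen was 0.68 ± 0.051 (SE), a fold change of 1.6 (adjusted p = 1.1e-13, edgeR). Rps3a1, a 40S protein near the mRNA exit site, was at 170.4 and 174 CPM for spleen WT, 258 and 249 for spleen KO, 158 and 146 for lung WT and 141 and 153 for lung KO. The spleen KO libraries were highest, spleen WT came next and the lung groups overlapped, and the log2 fold change in spleen was 0.54 ± 0.050 (adjusted p = 1.4e-11, edgeR). Rpl22, a 60S protein required for the development of some T cell lineages, was at 39.5 and 43.6 CPM for spleen WT, 65.9 and 60.7 for spleen KO, 42.4 and 41.5 for lung WT and 34.8 and 39.6 for lung KO. The 6 libraries outside spleen KO lay between 34.8 and 43.6 CPM, and the log2 fold change in spleen was 0.55 ± 0.079. Rpl17 and Rps12 were low (7.74 and 7.24 CPM for Rpl17 and 6.5 and 8.18 CPM for Rps12 in spleen WT), and their log2 fold changes were 0.87 ± 0.16 and 0.58 ± 0.18, of which that of Rps12 did not pass the test without spleen KO replicate 2 (0.58, adjusted p = 0.13, edgeR). Rpl7, another 60S protein, was at 229 and 223 CPM for spleen WT, 324 and 326 for spleen KO, 244 and 239 for lung WT and 193 and 205 for lung KO, and rose in spleen by 0.53 ± 0.045 on the log2 scale. Of the most abundant genes, Rps14 and Rpl4 rose too, with log2 fold changes of 0.54 and 0.34.

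Members with particular roles moved with the majority in spleen, with exceptions. The stalk of the 60S subunit, which recruits elongation factors, is built from Rplp0, Rplp1 and Rplp2. Rplp0 (619.5 and 593 CPM for spleen WT, 761 and 738 for spleen KO, 468 and 488 for lung WT and 537 and 563 for lung KO) and Rplp1 (238 and 215 CPM for spleen WT, 308 and 281 for spleen KO, 219 and 194 for lung WT and 220.0 and 227 for lung KO) rose in spleen KO by 0.30 ± 0.039 and 0.37 ± 0.053 on the log2 scale. Rplp2 (48.2 and 50.5 CPM for spleen WT, 48 and 47.5 for spleen KO, 36.9 and 32.9 for lung WT and 43.8 and 46.7 for lung KO) did not pass the test there, with a log2 fold change of -0.062 ± 0.078. Rpl5 and Rpl11, which with 5S RNA bind Mdm2 when ribosome assembly is disturbed, rose by 0.34 ± 0.051 and 0.45 ± 0.061. Rps6, the substrate of S6 kinase, rose by 0.46 ± 0.052 from 129 and 136 to 182 and 184 CPM, and Rps19, a gene mutated in Diamond-Blackfan anaemia, by 0.21 ± 0.050. Fau and Rps27a, whose products are made as fusions with a ubiquitin-like protein and ubiquitin, rose by 0.24 ± 0.059 and 0.27 ± 0.068. Rpsa, also known as the laminin receptor, rose by 0.33 ± 0.10, Rpl10a by 0.32 ± 0.065 and Rpl10, which joins the 60S subunit late, by 0.29 ± 0.051. Without spleen WT replicate 2, the adjusted p (edgeR) was 0.087 for Fau (log2 fold change 0.16), 0.066 for Rps27a (0.21) and 0.19 for Rpsa (0.24), and without spleen KO replicate 2 it was 0.15 for Rpsa (0.30).

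The 4 genes that fell in spleen KO were Rps28, Rps29, Rpl38 and Rps21, and all have short transcripts of 437, 390, 457 and 394 bases. Rps29, a small zinc-binding protein of the 40S head, was at 38.5 and 35.5 CPM for spleen WT, 25.1 and 26.4 for spleen KO, 33.8 and 32.9 for lung WT and 26.2 and 30.5 for lung KO. Both spleen KO libraries lay below all other libraries except one of lung KO, and the log2 fold change was -0.48 ± 0.094 (adjusted p = 4.7e-05, edgeR). Rps28 was at 17.5 and 13.3 CPM for spleen WT, 11.4 and 10.2 for spleen KO, 11.3 and 11.4 for lung WT and 10.4 and 11.4 for lung KO, with a log2 fold change of -0.51 ± 0.15 that rests on 70 and 114 reads in WT and 35 and 266 in KO. Rpl38, whose loss causes skeletal patterning defects in mice, was at 44 and 40.9 CPM for spleen WT, 35.3 and 34.9 for spleen KO, 37.3 and 32.4 for lung WT and 34.8 and 38.8 for lung KO, with a log2 fold change of -0.26 ± 0.088 that turned to 0.055 when a trend with GC content was removed from each library. Rps21 (53.5 and 49.8 CPM for spleen WT, 50.0 and 43.4 for spleen KO, 40.3 and 37.6 for lung WT and 46.3 and 46 for lung KO) had a log2 fold change of -0.20 ± 0.080, although its spleen libraries overlapped. The call of Rps29 held without any 1 spleen library, and those of the other 3 genes did not. Without spleen WT replicate 1 the adjusted p was 0.063 for Rps28 (log2 fold change -0.37), 0.06 for Rpl38 (-0.23) and 0.14 for Rps21 (-0.17). Without spleen KO replicate 2 it was 0.29 for Rps28 (-0.37), 0.2 for Rpl38 (-0.25) and 0.89 for Rps21 (-0.032), and without spleen WT replicate 2 it was 0.06 for Rps21 (-0.27, edgeR throughout).

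**Figure D2:**
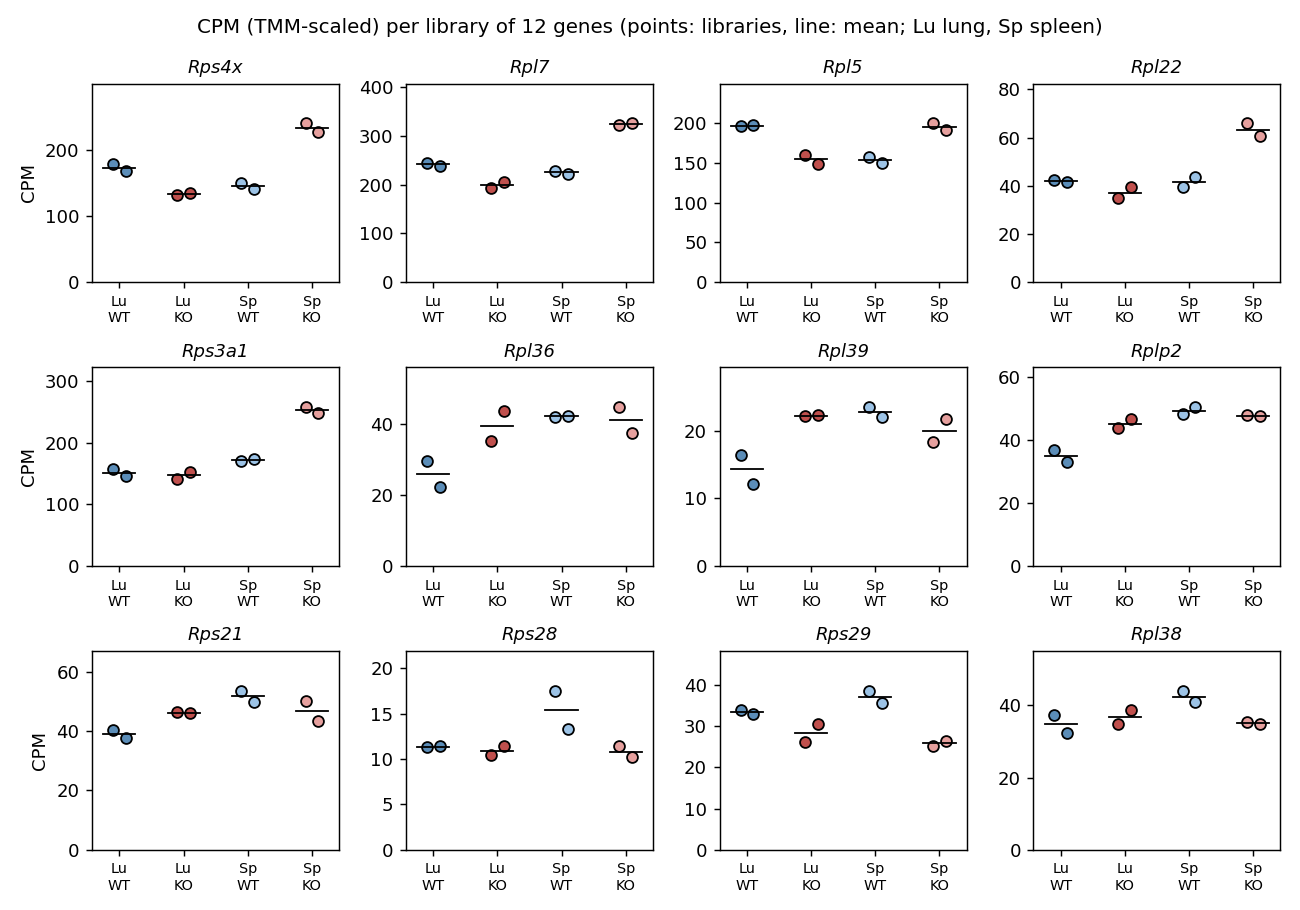
CPM (TMM-scaled, linear axis from 0) of 12 ribosomal protein genes in each library of lung (Lu) and spleen (Sp) NK cells. Points are libraries and lines are means of 2. Rps4x, Rpl7, Rpl22 and Rps3a1 are highest in spleen KO, Rpl36, Rpl39 and Rplp2 are lowest in lung WT, and Rps29 is at 25.1 and 26.4 CPM for spleen KO against 38.5 and 35.5 for spleen WT.

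The spleen values were ordered by transcript length. Of 18 tested genes with a longest coding transcript under 600 bases, 8 were higher and 4 lower, with a median log2 fold change of 0.067. Of 29 genes of 600 to under 1000 bases, 20 were higher and 0 lower (median 0.30), and of 34 genes of 1000 bases or more, 31 were higher and 0 lower (median 0.32). The Spearman correlation of log2 fold change and length over the 81 genes was 0.38, as a description, since the genes share libraries. Over all 12500 tested genes with an annotation it was -0.148, and among them 30.5% under 600 bases, 45.8% of 600 to under 1000 bases and 26.8% of 1000 bases or more were higher in spleen KO. The median over all tested genes was 0.23, 0.26 and -0.030 in the same 3 bins. By these medians, ribosomal protein genes under 600 bases lay below all tested genes of that length, and those of 1000 bases or more lay above them. When a trend with length was removed from each library, 41 of the 81 were higher and 14 lower in spleen KO (median 0.15, against 0.023 over all genes). Of all genes, 30.5% were then higher and 25.2% lower.

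**Figure D3:**
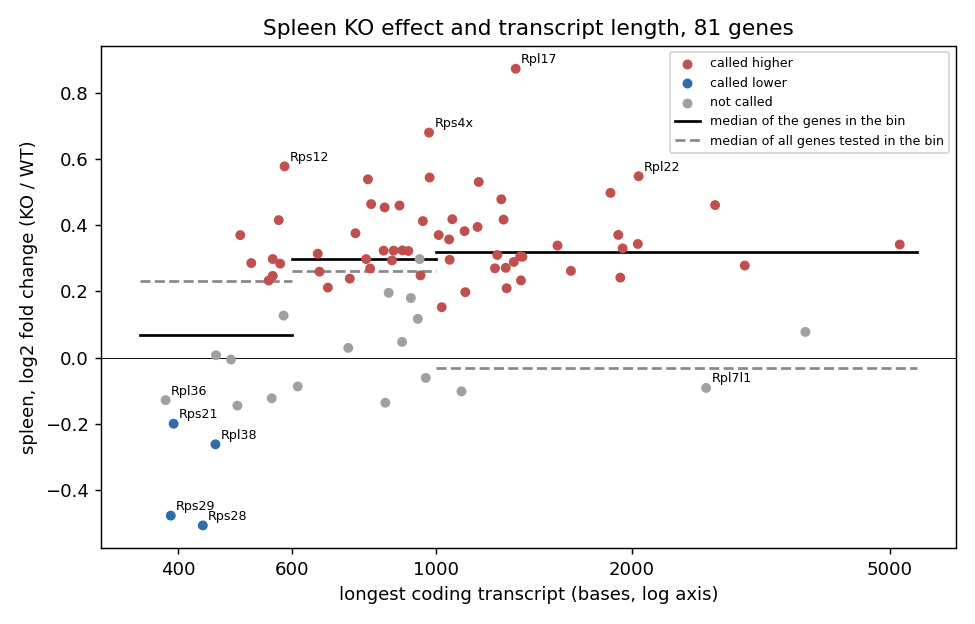
Log2 fold change (KO / WT) in spleen NK cells of 81 ribosomal protein genes against the length of the longest coding transcript (log axis). Colours mark calls at an FDR of 0.05, solid lines the median of these genes in each length bin and dashed lines that of all tested genes. The 4 genes called lower lie under 600 bases, and the medians of the 3 bins are 0.067, 0.30 and 0.32.

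In lung, the same deletion went with changes in both directions and no shift of the family. Of the 81 genes, 20 were higher and 11 lower in KO, where 29.2% and 26.4% of all genes were called, so that both shares (24.7% and 13.6%) lay at or below the background. The median log2 fold change, 0.020, was that of all genes tested, and 45 genes were above 0 and 36 below. By length, the median was 0.041 under 600 bases, 0.0079 from 600 to under 1000 bases and 0.0765 for 1000 bases or more. Over all genes of these lengths it was -0.14, -0.20 and 0.045. All 31 called genes had groups that did not overlap, which was likewise not counted over all genes. The split depended on the scaling: 29 were higher and 4 lower with library totals, where 35.1% and 20.3% of all genes were called. The median was then 0.114, against 0.113 over all genes. With a length trend removed, 28 were higher and 9 lower (25.3% and 30.9% of all genes). With a GC trend removed, 9 were higher and 27 lower (25.4% and 29% of all genes). The median turned to -0.10, against -0.032 over all genes.

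Of the genes higher in lung KO, those with the largest change were Rpl21, Rpl39, Rpl36, Rpl13 and Rpl32, all of the large subunit. Rpl36 was at 42 and 42.3 CPM for spleen WT, 44.7 and 37.4 for spleen KO, 29.6 and 22.3 for lung WT and 35.2 and 43.5 for lung KO. The lung WT libraries were the lowest of all, and the log2 fold change in lung was 0.56 ± 0.12 (adjusted p = 0.00012, edgeR). Rpl39, a small protein of the exit tunnel, was at 23.5 and 22.1 CPM for spleen WT, 18.3 and 21.7 for spleen KO, 16.4 and 12.2 for lung WT and 22.1 and 22.3 for lung KO, again lowest in lung WT, with a log2 fold change of 0.57 ± 0.14. Rpl13 (281 and 271 CPM for spleen WT, 348 and 333 for spleen KO, 191 and 174 for lung WT and 246 and 236 for lung KO) and Rpl32 (609 and 561 CPM for spleen WT, 745 and 716 for spleen KO, 409.5 and 378 for lung WT and 496 and 520.0 for lung KO) rose by 0.38 ± 0.052 and 0.36 ± 0.046, and both also rose in spleen KO by 0.30 and 0.32. Rpl21 rose by 0.68 ± 0.26 from 3.98 and 3.63 to 6.34 and 6.12 CPM, the lowest level among the tested genes, and did not pass the test without any 1 of the 4 lung libraries (0.64 to 0.77, adjusted p 0.062 to 0.11, edgeR). In the stalk, Rplp0 and Rplp2 rose by 0.21 ± 0.042 and 0.36 ± 0.10, and Rplp1 did not pass the test (0.10 ± 0.057). Rps19, Rps27a and Rps21 rose by 0.21, 0.21 and 0.23. Without lung KO replicate 2 the adjusted p (edgeR) of Rps19 was 0.11 (0.14) and that of Rps27a 0.33 (0.14), Rps27a also missed the threshold without either lung WT library (0.25 and 0.17), and Rps21 did so without any 1 lung library (0.19 to 0.29).

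Of the genes lower in lung KO, the largest changes were those of Rps4x, Rpl5, Rpl35, Rpl7 and Rps27l, with log2 fold changes of -0.38 ± 0.057, -0.35 ± 0.054, -0.33 ± 0.057, -0.28 ± 0.049 and -0.25 ± 0.085. The value of Rps27l was -0.015 without lung WT replicate 1 (adjusted p = 0.92) and -0.25 without lung KO replicate 2 (adjusted p = 0.058, edgeR). Rpl5 was at 157 and 149.7 CPM for spleen WT, 199.5 and 191 for spleen KO, 196 and 197 for lung WT and 160.3 and 149 for lung KO. Its lung KO and spleen WT libraries overlapped, as did lung WT and spleen KO, so that the order of the genotypes was opposite in the organs. Rpl35, at the opening of the exit tunnel, was at 447 and 406 CPM for spleen WT, 536 and 485 for spleen KO, 434 and 365 for lung WT and 309.5 and 332 for lung KO, and 66.16% of its exon length overlaps genes of the other strand. Fau, Rps6, Rps27, Rpl3, Rpl10, Rpl10a, Rpl11, Rpl38 and Rpsa did not pass the test in lung, with log2 fold changes between -0.20 and 0.061.

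The KO effect itself was then compared between the organs, as the lung effect minus the spleen effect in the same model. This difference was below 0 for 39 of the 81 genes and above 0 for 7, where 29% and 32.5% of all genes were called in these directions. The median difference was -0.18 on the log2 scale, against 0.034 over all genes. It was -0.089 under 600 bases, -0.23 from 600 to under 1000 bases and -0.19 for 1000 bases or more. Over all genes of these lengths it was -0.38, -0.43 and 0.0965. By these medians, ribosomal protein genes under 1000 bases lay above other genes of their length, and longer ones lay below. All 11 genes lower in lung KO were higher in spleen KO. Of the 20 higher in lung KO, 16 were higher in spleen KO, 1 (Rps21) was lower there and 3 (Rpl36, Rpl39 and Rplp2) were not called. Another 32 genes were higher in spleen KO without a call in lung. These joint calls were not counted over all genes, and 72.8% of the 81 were higher in spleen KO. They therefore cannot show whether the pairing of directions is particular to these genes.

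The largest differences were those of Rps4x (-1.06 ± 0.077, adjusted p = 1.1e-14, edgeR), Rpl17 (-0.97 ± 0.24), Rpl7 (-0.81 ± 0.067), Rps12 (-0.71 ± 0.28) and Rpl22 (-0.71 ± 0.13). Among those called above 0 were Rpl36 (0.69 ± 0.15), Rpl39 (0.66 ± 0.18), Rps21 (0.43 ± 0.12), Rplp2 (0.42 ± 0.12) and Rpl38 (0.32 ± 0.13), of which Rpl36, Rplp2 and Rpl38 turned below 0 when a GC trend was removed. The median difference kept its sign in every alternative, but lay at -0.022 with library totals (0.19 over all genes) and at -0.039 when a length trend was removed (-0.050 over all genes). With the length trend removed, 21 genes were above 0 and 26 below, where 27.5% and 33% of all genes were called. Over all annotated genes tested, log2 fold change and GC content were correlated with opposite signs in the organs (Spearman 0.293 in lung and -0.276 in spleen, n = 12500), and over the 81 genes less so (0.117 and -0.14). Of the differences named, those of Rps12, Rpl38 and Rps21 missed the threshold when certain single libraries were left out (-0.36 for Rps12 and 0.23 for Rpl38 without lung KO replicate 2, and 0.26 for Rps21 without spleen KO replicate 2).

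**Figure D4:**
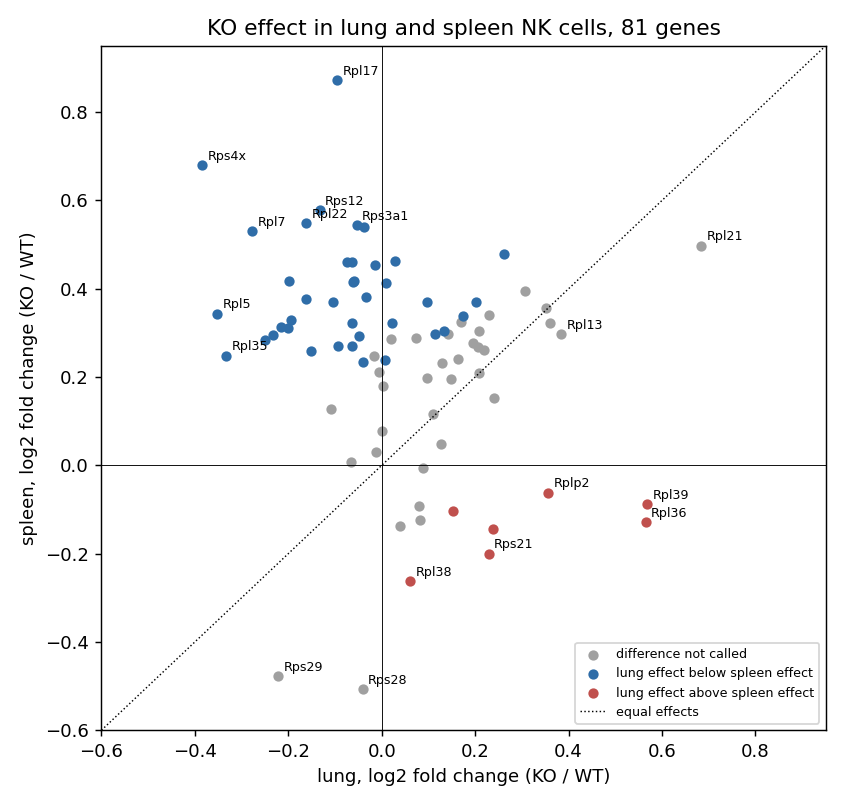
KO effect (log2 fold change, KO / WT) of the 81 tested ribosomal protein genes in lung (x axis) and spleen (y axis) NK cells. Points are genes, colours mark whether the lung effect was called below or above the spleen effect, and the dotted line marks equal effects. Rps4x lies at -0.38 in lung and 0.68 in spleen, and Rpl36 at 0.56 and -0.13.

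Lung and spleen NK cells of WT mice were compared next. In WT, 42 of the 81 genes were lower in lung and 4 higher, where 29.3% and 27.7% of all genes were called, and the median log2 fold change was -0.19 against -0.0094 over all genes. The lowest were Rpl36 (-0.64 ± 0.12), Rpl39 (-0.59 ± 0.14), Rpl13 (-0.58 ± 0.051), Rpl32 (-0.55 ± 0.045) and Rplp2 (-0.48 ± 0.093). Higher in lung were Rpl17 (0.52 ± 0.19), Rps4l (0.43 ± 0.17), Rpl5 (0.37 ± 0.054) and Rps4x (0.27 ± 0.056). Rpl17 did not pass the test without lung WT replicate 1 (0.35) or spleen WT replicate 2 (0.46), nor did Rps4l without lung WT replicate 1 (0.42), spleen WT replicate 1 (0.42) or spleen WT replicate 2 (0.43). Rps14, the gene with most reads per kilobase, did not pass the test (0.013 ± 0.047). With library totals the counts were 59 lower and 2 higher, against 36.4% and 21.2% of all genes. With a GC trend removed they were 32 lower and 11 higher, against 26% and 30.6%.

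In KO mice most of these genes were lower in lung. Of the 81 genes, 69 (85.2%) were lower in lung and 0 higher by edgeR's quasi-likelihood test, where 31.7% and 33.9% of all genes were called, and the median was -0.41 against 0.017. All 69 had groups that did not overlap, and here too no count over all genes was made. Short genes as a whole were lower in lung too. Over all genes tested, 39.6% under 600 bases, 52.6% of 600 to under 1000 bases and 29.7% of 1000 bases or more were lower. Their medians were -0.32, -0.36 and 0.057. The ribosomal protein genes of these lengths were lower at 66.7%, 89.7% and 91.2%, with medians of -0.28, -0.47 and -0.42. The lowest were Rps4x (-0.79 ± 0.052), Rps3a1 (-0.77 ± 0.051), Rps27l (-0.73 ± 0.075), Rpl22 (-0.71 ± 0.082) and Rps6 (-0.71 ± 0.053). Among the 12 genes that did not pass the test were Rpl36, Rpl38, Rpl39, Rplp2, Rps21, Rps28, Rps29 and Rps4l, with values such as 0.055 ± 0.10 for Rpl36 and 0.13 ± 0.10 for Rps29. At an unadjusted p under 0.05 the counts were also 69 and 0, DESeq2 called 58 and 0, and 73 of the 81 values lay below 0 and 8 above. With a length trend removed, 48 were lower and 9 higher, against 34.4% and 29.8% of all genes. The comparisons in WT and KO share no libraries with each other, but each shares libraries with both KO comparisons, so the values are given side by side. Spleen KO and spleen WT libraries also differed in the share of reads aligned to several places, as given above.

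**Figure D5:**
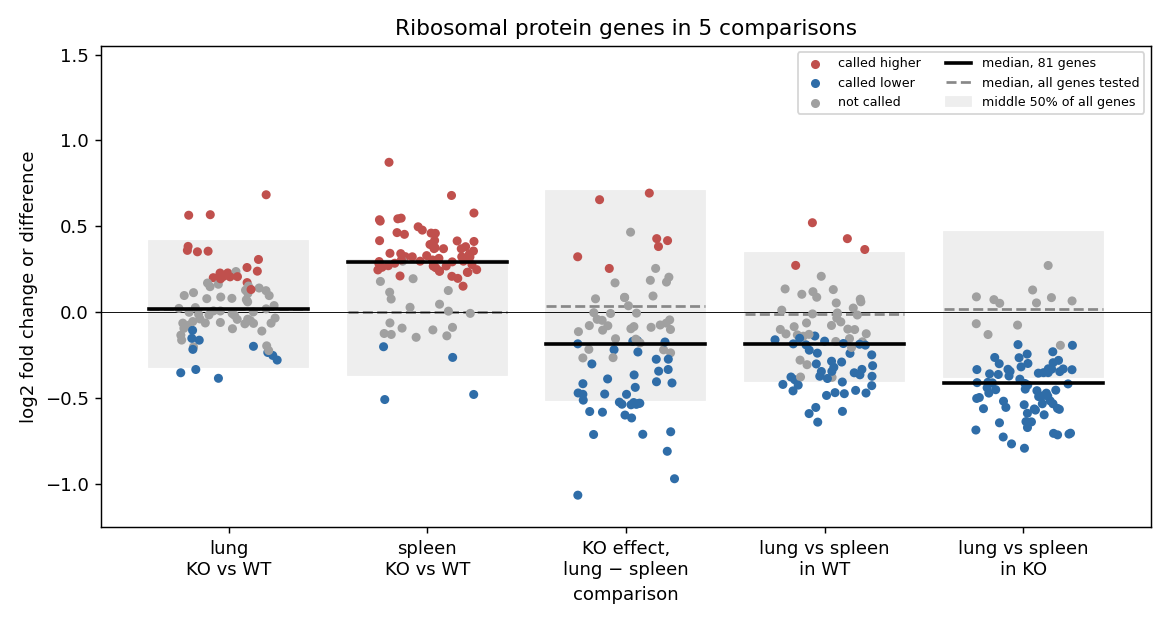
Log2 fold changes of 81 ribosomal protein genes (points) in the 4 pairwise comparisons and the difference of the KO effects, coloured by call at an FDR of 0.05. Solid lines are their medians (0.020, 0.29, -0.18, -0.19 and -0.41 from left to right), dashed lines the medians of all genes tested, and grey boxes the middle 50% of all genes.

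Some ribosomal proteins have a paralog, and its level was set against that of its partner. The size of a ratio depends on the gene length used and on how much of each transcript is unique. Unique 50-base words made up 85.12% for Rps4l and 27.75% for Rps4x, 86.31% for Rps27l and 36.92% for Rps27, and 42.74% for Rpl22l1 and 94.81% for Rpl22. The ratios are thus not ratios of transcript numbers. On the scale of reads per kilobase, Rps4l, which GENCODE types as a transcribed processed pseudogene, was at 0.0773 and 0.0799 of the level of Rps4x in lung WT, 0.112 and 0.113 for lung KO, 0.0671 and 0.0724 for spleen WT and 0.0563 and 0.054 for spleen KO. The groups did not overlap, and the ratio was highest in lung KO and lowest in spleen KO. Rps4l itself was at 9.74 and 9.81 CPM for spleen WT, 13.1 and 11.9 for spleen KO, 13.3 and 12.9 for lung WT and 14.3 and 14.7 for lung KO and did not pass the test for KO in either organ (0.14 ± 0.15 in lung and 0.30 ± 0.15 in spleen). Rpl7l1, a paralog of Rpl7, was at 0.22 and 0.223 of Rpl7 for lung WT, 0.30 and 0.272 for lung KO, 0.305 and 0.308 for spleen WT and 0.197 and 0.20 for spleen KO, and its own KO effects did not pass the test (0.080 and -0.092). Rps27l, a paralog of Rps27 induced by p53, was at 0.259 and 0.239 of Rps27 for lung WT, 0.239 and 0.213 for lung KO, 0.259 and 0.253 for spleen WT and 0.324 and 0.308 for spleen KO. Rps27 itself did not pass the test in either organ (-0.067 and 0.007), while Rps27l was called lower in lung and higher in spleen (-0.25 and 0.28). The lung value rested on WT replicate 1, as given above, and the spleen value did not pass the test without WT replicate 2 (0.21, adjusted p = 0.063, edgeR). Rpl22l1, which can take the place of Rpl22, stood at 4.27 to 6.47 times the level of Rpl22 per kilobase of the longest coding transcript (552 and 2051 bases). Over the union of all exons the gap was smaller, at 31.58 RPKM for Rpl22l1 and 15.8 for Rpl22 over all libraries. In spleen KO both rose (0.23 and 0.55). Rpl22l1 did not pass the test there without WT replicate 2 (0.19, adjusted p = 0.17, edgeR), and its value was -0.014 when a length trend was removed. Of the pair Rpl3 and Rpl3l, Rpl3 was at 288 and 267 CPM for spleen WT, 327 and 322 for spleen KO, 229 and 220.4 for lung WT and 222 and 217 for lung KO. The ratios were not tested, because 2 libraries against 2 cannot give an exact p below 0.333.

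Other genes of the translation machinery were read from 3 lists. Of 21 tested translation factors and other mRNAs with a terminal oligopyrimidine motif, 13 were higher and 3 lower in spleen KO (median 0.25), where 28.2% and 28.9% of all genes were called. In lung KO 5 were higher and 5 lower (median 0.0088), both below the 29.2% and 26.4% of all genes. In spleen KO, Eef1b2, a nucleotide exchange factor of elongation, rose by 0.54 ± 0.055, the histone chaperone gene Nap1l1 by 0.50 ± 0.069 and Tpt1 by 0.50 ± 0.056 on the log2 scale, whereas Pabpc1, the poly(A)-binding protein (-0.43 ± 0.036), Eif3f (-0.39 ± 0.047) and Eef2, the translocation factor (-0.23 ± 0.040), fell. Pabpc1 rose (0.51) and Tpt1 fell (-0.36) in lung KO. Between organs, 10 of the 21 were lower and 3 higher in lung in WT (median -0.15), and 15 and 2 in KO (median -0.40). Of all genes, 29.3% were lower and 27.7% higher in WT, and 31.7% and 33.9% in KO. The difference of the KO effects was below 0 for 13 and above 0 for 4 (median -0.26), against 29% and 32.5% of all genes.

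Ribosome biogenesis genes were called in both directions at shares near or below those of all genes in the KO comparisons. Of 37 tested, 10 were higher and 11 lower in spleen KO (median -0.033), against 28.2% and 28.9% of all genes, and 10 and 7 for lung KO (median 0.016), against 29.2% and 26.4%. Rrs1 and Bop1, needed for 60S assembly, fell in spleen KO (log2 fold changes -1.30 ± 0.12 and -1.03 ± 0.11), as did Mybbp1a (-0.94 ± 0.11), whereas Wdr12 (0.63 ± 0.087), Nip7 (0.47 ± 0.079) and Npm1 (0.45 ± 0.048), the nucleophosmin gene, rose. In lung KO, Bysl (0.90), Bop1 (0.79) and Rrp9 (0.70) rose and Nip7 (-0.70), Utp20 (-0.59) and Nhp2 (-0.43) fell. In lung against spleen, 18 were higher and 6 lower in WT (median 0.14) and 19 and 5 in KO (median 0.22), the opposite direction to most ribosomal protein genes. Of all genes, 27.7% were higher and 29.3% lower in WT, and 33.9% and 31.7% in KO. The lung effect minus the spleen effect was above 0 for 13 and below 0 for 13 (median 0.076), near the 32.5% and 29% of all genes.

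Of 14 genes of mTORC1 and translation control, Myc and Max among them, 7 were higher and 3 lower in lung KO (median 0.21) and 4 and 3 for spleen KO (median -0.13), where the spleen counts lie near or below the 28.2% and 28.9% of all genes and the lung counts stand against 29.2% and 26.4%. In lung KO, Rps6kb2, an S6 kinase (1.20 ± 0.16), Rptor, the Raptor subunit (1.09 ± 0.16), and Eif4ebp1, a repressor of the cap-binding factor (0.74 ± 0.12), rose, and Mtor (-0.85 ± 0.15), Rps6kb1 (-0.37 ± 0.062) and Rheb (-0.31 ± 0.043) fell. In spleen KO, Tsc1 (0.58), Eif4e (0.41) and Rheb (0.39) rose and Max (-0.93), Eif4ebp2 (-0.91) and Akt1 (-0.58) fell. The lung effect minus the spleen effect was above 0 for 7 and below 0 for 4 (median 0.46), against 32.5% and 29% of all genes. In lung against spleen, 6 were higher and 5 lower in WT (median -0.11), against 27.7% and 29.3% of all genes. In KO, 5 were higher and 1 lower (median 0.16), against 33.9% and 31.7%.

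The calls rest on a very small spread between libraries of a group. The common biological coefficient of variation was 2.5%, and the residual degrees of freedom were 4. At an assumed coefficient of 20%, edgeR's likelihood ratio test called 0 of the 81 genes in 4 of the 5 comparisons (at an unadjusted p under 0.05, 0 for lung KO, 3 for spleen KO, 1 for the difference and 3 between organs in WT), and 3 were lower in lung than in spleen in KO (19 at an unadjusted p under 0.05). DESeq2 called 42 genes higher and 1 lower in spleen KO (16.2% and 16.8% of all genes) and 11 and 6 for lung KO (18.9% and 16.9%). In spleen KO the count of higher genes without 1 library ran from 41, without WT replicate 2, to 58, and the median log2 fold change from 0.24 to 0.36.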

How the data were processed

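RNA from sorted NK cells was sequenced in 8 libraries of 50-bp reads, and the authors aligned reads to mm10 (GRCm38) with HISAT2 (version 2.1.0), counted them on genes with HTSeq (version 0.11.1 per the submitters' processing notes) and deposited the raw counts of each library by gene symbol. The annotation and strand setting are not given in the sources used here, and uncounted reads entered only the description of libraries. Intervals and floors cover counting error only. The deposited counts were fitted with edgeR 4.0.16 under R 4.3.3 (filterByExpr, TMM scaling, 1 mean for each of 4 groups over all 8 libraries, quasi-likelihood test, Benjamini-Hochberg FDR of 0.05 over the 12595 genes kept). Standard errors come from the F statistic. Groups and replicate numbers come from the labels. Equally numbered libraries are not stated to be paired, so no block was used. Gene positions, lengths and GC content come from GENCODE M21, which matched all 84 genes, and start sites from RefSeq (GRCm38.p6).

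The genes and lists were chosen with earlier results of these data known. Genes named are the 5 highest and 5 lowest called in each comparison, a list fixed by role, the most and least abundant, and up to 3 in each direction from the other lists. Rps14, Rpl4 and Rps27 are among the most abundant, further names complete short counts, and values of some genes that the rule names are not reported here. Alternatives were DESeq2 1.42.0, other scalings and filters, GC and length offsets (splines with 5 df), an assumed coefficient of variation, and leaving out libraries. The steps were tested on simulated data.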

Additional observations from a re-analysis of the deposited data

Results flagged for a closer look

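The KO effect differed between lung and spleen for 46 of the 81 ribosomal protein genes by the test of the difference itself (edgeR's quasi-likelihood test, FDR 0.05, lung effect minus spleen effect on the log2 scale). The share of genes called in either direction was not above that of all genes, since 35 of the 81 and 4842 of all 12595 genes were not called. The directions departed from all genes in the main fit, but not when a length trend was removed. In the main fit, 39 of the 81 (48.1%) were called below 0 and 7 (8.64%) above. Over all genes tested, 29% were called below 0 and 32.5% above. With the length trend removed, 26 of the 81 were below 0 and 21 above, against 33% and 27.5% of all genes. The medians were then -0.039 over the 81 and -0.050 over all genes. Among the genes chosen by size or role, the difference was below 0 for Rps4x (-1.06), Rpl17 (-0.97), Rpl7 (-0.81), Rps12 (-0.71), Rpl22 (-0.71), Rpl5 (-0.69), Rps3a1 (-0.60), Rpl35 (-0.58), Rps27l (-0.53), Rpsa (-0.53), Rps6 (-0.52), Rpl11 (-0.47), Rpl10 (-0.34), Rpl10a (-0.30), Rpl3 (-0.27), Rplp1 (-0.27) and Fau (-0.23). It was above 0 for Rpl36 (0.69), Rpl39 (0.66), Rps21 (0.43), Rplp2 (0.42) and Rpl38 (0.32). Of the genes named for their abundance, it was below 0 for Rps14 (-0.58), Rps3 (-0.48) and Rpl4 (-0.17). Some of these calls were lost when 1 library was left out: that of Fau without lung KO replicate 2 (-0.23), spleen WT replicate 2 (-0.15) or spleen KO replicate 1 (-0.15), that of Rpl10a without lung KO replicate 1 (-0.23) or spleen WT replicate 2 (-0.26), that of Rplp1 without lung WT replicate 1 or spleen WT replicate 2 (-0.18 in both), and that of Rpsa without lung WT replicate 1 (-0.38). The calls of Rps12 and Rpl38 were each lost without 4 single libraries and that of Rps21 without spleen KO replicate 2.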

How the results depend on the processing

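The median log2 fold change over the ribosomal protein genes kept its sign in the spleen comparison, the difference of the KO effects and both organ comparisons under every alternative run, and changed sign in lung KO. Medians and counts below are given in the order lung KO, spleen KO, difference of the KO effects, lung against spleen in WT, and in KO. With library totals the medians were 0.11, 0.23, -0.022, -0.29 and -0.36, while the medians of all genes shifted by 0.093, -0.065, 0.16, -0.11 and 0.054, so that relative to all genes the median difference was -0.22, as with TMM. With a GC offset the medians were -0.10, 0.38, -0.44, -0.068 and -0.52, and the genes higher and lower were 9 and 27, 65 and 1, 1 and 56, 11 and 32, and 0 and 72. Of all genes, these were 25.4 and 29%, 29.4 and 26.4%, 28.2 and 31%, 30.6 and 26%, and 31.3 and 32.7%. With a length offset the medians were 0.13, 0.15, -0.039, -0.23 and -0.22, and the genes higher and lower were 28 and 9, 41 and 14, 21 and 26, 6 and 48, and 9 and 48. Of all genes, these were 25.3 and 30.9%, 30.5 and 25.2%, 27.5 and 33%, 31.7 and 26.2%, and 29.8 and 34.4%. With library totals these counts were 29 and 4, 53 and 8, 15 and 25, 2 and 59, and 1 and 67. The shares of all genes were 35.1 and 20.3%, 23.6 and 33.6%, 38.9 and 22.4%, 21.2 and 36.4%, and 36.9 and 28.4%. The number called was 17 in lung KO, 30 for the difference and 28 between organs in WT by DESeq2, and 13, 26 and 26 at an FDR of 0.001. At an assumed coefficient of variation of 20% it was 0, 0, 0, 0 and 3. The cause of these changes was not tested. Scaling by RLE, TMM without the ribosomal protein genes, both filters and fits of only 4 libraries left each count within 1.5 times. The replicate numbers are not shown to pair libraries (correlations of the deviations of equally numbered libraries between -0.0758 and 0.169 over 5103 genes), and with replicate number as a block the calls were 21 and 11, 59 and 3, 7 and 39, 4 and 48, and 0 and 69.

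With 1 library left out, an arm of 1 library being assumed to vary like the others, the number called ran from 18 to 25 in lung KO (18 without KO replicate 2), 45 to 63 in spleen KO, 36 to 49 for the difference, 37 to 48 between organs in WT and 61 to 67 in KO. The medians ran from -0.029 (without WT replicate 2) to 0.11 (without WT replicate 1) in lung KO, 0.24 to 0.36 in spleen KO, -0.27 to -0.15 for the difference, -0.26 to -0.13 in WT and -0.46 to -0.38 in KO. For the named genes, 72 calls were lost in this way. Depth limits the genes with few reads: 3 of the 84 were not tested, and 3 reads correspond to as much as 0.979 CPM in the shallowest library.

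The GC offset reversed the sign for Fau (-0.39), Rpl10a (-0.24), Rpl38 (-0.30) and Rplp1 (-0.21) in lung KO, for Rpl36 (0.23) and Rpl38 (0.055) in spleen KO, for Rpl13 (-0.48), Rpl32 (-0.16), Rpl36 (-0.068), Rpl38 (-0.35) and Rplp2 (-0.015) in the difference, for Fau (0.081), Rpl35 (0.16), Rpl38 (0.011), Rplp1 (0.13) and Rps27 (0.0088) between organs in WT, and for Rpl36 (-0.44) and Rpl38 (-0.34) in KO. The length offset did so for Rpl22l1 (-0.014) and Rps27 (-0.26) in spleen KO, for Fau (0.12), Rpl10a (0.0055), Rpl22l1 (0.31), Rplp1 (0.15), Rps27 (0.36) and Rps27a (0.26) in the difference, and for Rpl22l1 (0.074) and Rps27 (0.075) between organs in KO. The cause was not tested.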
